A study of Mus musculus with 11 samples.

Results

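The 10 genes described here encode E2F transcription factors and the pocket proteins that bind them, in mouse bone marrow cells in which mutant CSF3R and mutant CEBPA were introduced in different orders. They were chosen by symbol and matched to Ensembl identifiers: the activators E2f1, E2f2 and E2f3, the canonical repressors E2f4 and E2f6, the atypical repressors E2f7 and E2f8, and the pocket protein genes Rb1, Rbl1 and Rbl2. All 10 were among the 51912 genes of the count table and among the 15703 that passed the filter on low counts. The rule uses no measured value, but the list was drawn up with earlier results of these data known.

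RNA-seq libraries came from C57BL/6 marrow. Per the study's methods the cells carried the tamoxifen-activated Cre recombinase ERT2-Cre at Rosa26 and were transduced with a pair of retroviral vectors. The MIG vector expresses its oncogene from the start and marks the cell with GFP, and the idsRed vector expresses its oncogene only after Cre has acted. CSF3R-only cells (n = 4) held CSF3R T618I in MIG and an empty idsRed vector, so the control group carries an oncogene too. CSF3R-first cells (n = 3) held CSF3R T618I in MIG and CEBPA V314VW in idsRed, and CEBPA-first cells (n = 4) held CEBPA V314VW in MIG and CSF3R T618I in idsRed (both groups are called double-mutant). CSF3R T618I is a membrane-proximal mutation that activates the receptor for granulocyte colony-stimulating factor, and V314VW lies in the C-terminal, DNA-binding part of the myeloid transcription factor CEBPA. Lineage-negative cells carrying both reporters were sorted and kept in 4-hydroxytamoxifen for 48 h, in every group. No group without mutant CSF3R was part of this comparison, mutant CEBPA and the order of its arrival differ together between CSF3R-only and CEBPA-first, and the sources used here do not say which libraries came from separate animals or cultures. If they did not, the p-values measure only a technical spread between samples.

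E2F factors bind DNA mostly as dimers with a DP protein and control the genes that carry a cell from G1 into S phase. The activators switch these genes on once cyclin-dependent kinases have removed RB1 from them. E2F4 acts mainly with the pocket proteins p107 (Rbl1) and p130 (Rbl2), within the DREAM complex in resting cells, to keep cell cycle genes off. E2F6 binds no pocket protein and works with a Polycomb complex, while E2F7 and E2F8 bind DNA without DP and damp E2F targets late in the cycle. Wild-type CEBPA restrains proliferation in part by repressing E2F-driven transcription, and activator and repressor E2Fs were compared with this in view. The paper places the contact with E2F in a domain that the short CEBPA isoform lacks, the isoform left by N-terminal mutations. V314VW is a C-terminal mutation, and whether it changes this repression was not tested.

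Promoter sequence was taken from RefSeq on build GRCm38.p6, in windows of 250 bases before to 50 bases after the annotated start. It was found for 8 of the 10 genes, with no entry for E2f4 and Rb1. The windows were searched on both strands for the E2F motifs TTTCCCGC and TTTGGCGC, because E2F genes are themselves known E2F targets. At least one of the motifs was present in 1.56% of the 32851 promoters in the table. It was found in 1 of 2 windows of E2f2, in 1 of 2 windows of E2f3 and in the window of E2f7, whose expression moved in different directions, and these windows are shown with the motif in capitals (in E2f3 and E2f7 it is TTTCCCGC read on the other strand). Each is written 5′ to 3′ in the direction of the gene.
E2f2 (chr4:136172024-136172323, + strand): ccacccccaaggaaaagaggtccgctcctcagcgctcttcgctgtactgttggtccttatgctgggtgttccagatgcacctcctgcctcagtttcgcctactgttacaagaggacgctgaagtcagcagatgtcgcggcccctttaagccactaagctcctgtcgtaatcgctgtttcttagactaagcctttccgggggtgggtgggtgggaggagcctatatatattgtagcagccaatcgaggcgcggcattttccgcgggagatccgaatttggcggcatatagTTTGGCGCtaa
E2f3 (chr13:29986014-29986313, − strand): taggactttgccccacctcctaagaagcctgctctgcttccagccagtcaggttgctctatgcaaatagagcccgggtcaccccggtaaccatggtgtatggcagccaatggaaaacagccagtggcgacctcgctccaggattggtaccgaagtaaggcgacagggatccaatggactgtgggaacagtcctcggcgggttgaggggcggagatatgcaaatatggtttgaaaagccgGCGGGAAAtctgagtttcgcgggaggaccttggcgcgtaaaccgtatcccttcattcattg
E2f7 (chr10:110745189-110745488, + strand): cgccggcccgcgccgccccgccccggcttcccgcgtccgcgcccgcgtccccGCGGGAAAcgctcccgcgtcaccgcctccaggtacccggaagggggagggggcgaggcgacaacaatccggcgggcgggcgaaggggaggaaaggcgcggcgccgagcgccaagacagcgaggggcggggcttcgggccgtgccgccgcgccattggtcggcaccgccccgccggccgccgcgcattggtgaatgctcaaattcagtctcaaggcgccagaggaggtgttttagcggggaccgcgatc
In E2f2 the motif begins 40 bases after the RefSeq start, in E2f3 it begins 11 bases before it, and in E2f7 it begins 198 bases before it. GENCODE starts E2f2 at 136172394, beyond the end of the window shown, so by that annotation the motif lies before the gene. A match of letters does not show binding, and the windows of E2f1, E2f6, E2f8, Rbl1 and Rbl2 held neither spelling. The RefSeq window used for E2f1 lies inside the GENCODE gene, so other starts of this gene were not searched. The C/EBP-type motif TTNNGCAA, present in 10.8% of all promoters, was in none of the windows of these 8 genes.

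Library totals ran from 47905747 to 72268346 counts, with overlapping ranges in the 3 groups. The least counted member, E2f3, had at least 882 counts in every library, and the spread between samples holds this counting error as well. Values are counts per 1000000 (CPM) on TMM-scaled library sizes unless stated, and a gene is said to have risen or fallen where edgeR's quasi-likelihood test gave an adjusted p under 0.05 over all tested genes. In these bulk samples fewer cells of a type and less RNA per cell cannot be told apart. Myeloid markers set the context: neutrophil markers were abundant everywhere, but the summed level of the 9 genes on that list was 24900 to 29900 CPM in CSF3R-only, 17500 to 27100 CPM in CSF3R-first, which overlaps it, and 11500 to 13300 CPM in CEBPA-first, with the granule genes Ltf, Camp and Ngp among the 6 that fell in CEBPA-first cells and Elane, Mpo and Prtn3 rising. B cell markers summed to at most 0.95 CPM and T and NK cell markers to at most 0.0806 CPM in any library. Megakaryocyte markers fell from 804 to 1090 CPM in CSF3R-only to 319 to 485 CPM in CSF3R-first and 109 to 152 CPM in CEBPA-first, and the sum of Csf1r, Adgre1 and the 3 other monocyte and macrophage markers went from 1570 to 2120 CPM to 860 to 1520 CPM and 518 to 701 CPM. Mast and basophil markers summed to 1080 to 1720 CPM, 625 to 791 CPM and 626 to 878 CPM in the same order. These sums hide members that went the other way in CEBPA-first against CSF3R-only cells. Fcer1a rose (log2 fold change 1.15, edgeR adjusted p = 0.00032) while Cpa3 and Mcpt8 fell. Ly6c2 rose (0.32, adjusted p = 0.045) while the other monocyte and macrophage markers fell. The part of these shifts in the E2F results was not tested.

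The family was expressed at very different levels. Corrected for the length of the exons, as CPM per kilobase of exon (FPKM), E2f4 was the highest member, with a mean of 71.6 FPKM over the 11 libraries, above 95.3% of tested genes. E2f2 followed at 36.3 FPKM, and was the main activator E2F in these cells, ahead of E2f1 at 19.8 FPKM and E2f3 at 5.06 FPKM. Among the atypical repressors E2f8 reached 21.3 FPKM and E2f7, the lowest member, 2.99 FPKM. E2f6 stood at 6.74 FPKM. The pocket protein genes lay close together, with Rbl1 at 15.6, Rb1 at 14.4 and Rbl2 at 10.6 FPKM.

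The order of the levels was not the same in the 3 groups. In CSF3R-only libraries it ran E2f4, E2f2, E2f8, E2f1, Rb1, Rbl2, Rbl1, E2f6, E2f3 and E2f7, and the neighbours E2f1 and Rb1, Rbl2 and Rbl1, and E2f6 and E2f3 overlapped in their ranges. In CSF3R-first libraries Rbl1 stood above Rb1 and Rbl2, although its range overlapped that of Rb1, and E2f8 and E2f1 overlapped, as did E2f6 and E2f3. In CEBPA-first libraries E2f2, E2f8 and E2f1 formed a group of overlapping neighbours at 27.2 ± 1.66, 23.7 ± 1.59 and 22.9 ± 1.31 FPKM (SD, n = 4), where in CSF3R-only libraries the same genes had been well apart at 42.9 ± 2.31, 17.8 ± 0.772 and 15.5 ± 0.37 FPKM (SD, n = 4). There Rbl1 was above Rb1 with no overlap, and Rbl2 and E2f6 overlapped.

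**Figure D1:**
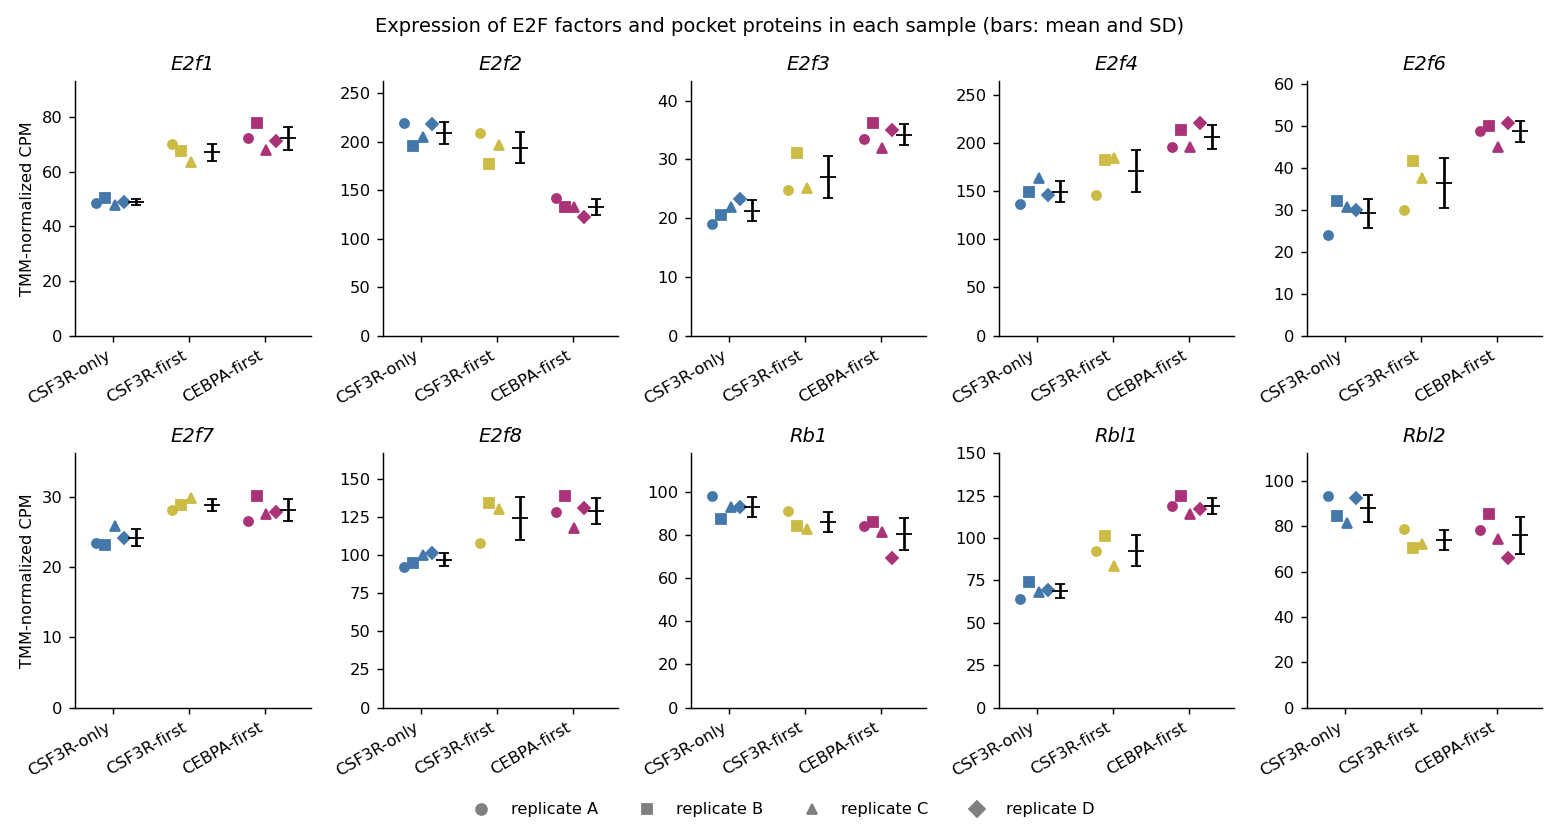
Expression of the 10 genes in each of the 11 libraries, as TMM-normalized CPM on an axis that starts at 0 in every panel. Marks are single libraries, with the shape giving the replicate letter, and the black bar beside each group is its mean ± SD. E2f2 is the one E2F whose CEBPA-first libraries, at 122 to 142 CPM, lie below all others, while E2f1, E2f3, E2f4, E2f6, E2f7 and E2f8 and the pocket protein gene Rbl1 have their CEBPA-first libraries above every CSF3R-only library.

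Cells that received CEBPA V314VW first differed from CSF3R-only cells in all 10 genes: 7 rose and 3 fell. This count has to be read against a comparison in which 72.0% of all tested genes were called, 35.4% higher and 36.6% lower. The member count was 9 with DESeq2. It was 8 with library size as the only scaling and with no filter on low counts, where the falls of Rb1 and Rbl2 lost their calls. The groups did not overlap for 9 of the 10 genes, beside 68.7% of tested genes. The median log2 fold change over the members was 0.44 and that over all tested genes was 0, to 2 decimals. None of the 10 reached the study's threshold of a log2 fold change over 1, which 27.0% of tested genes passed, and DESeq2 also placed none there. The changes were modest in size, with Rbl1, the largest, exceeding 62.6% of tested genes in absolute log2 fold change.

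**Figure D2:**
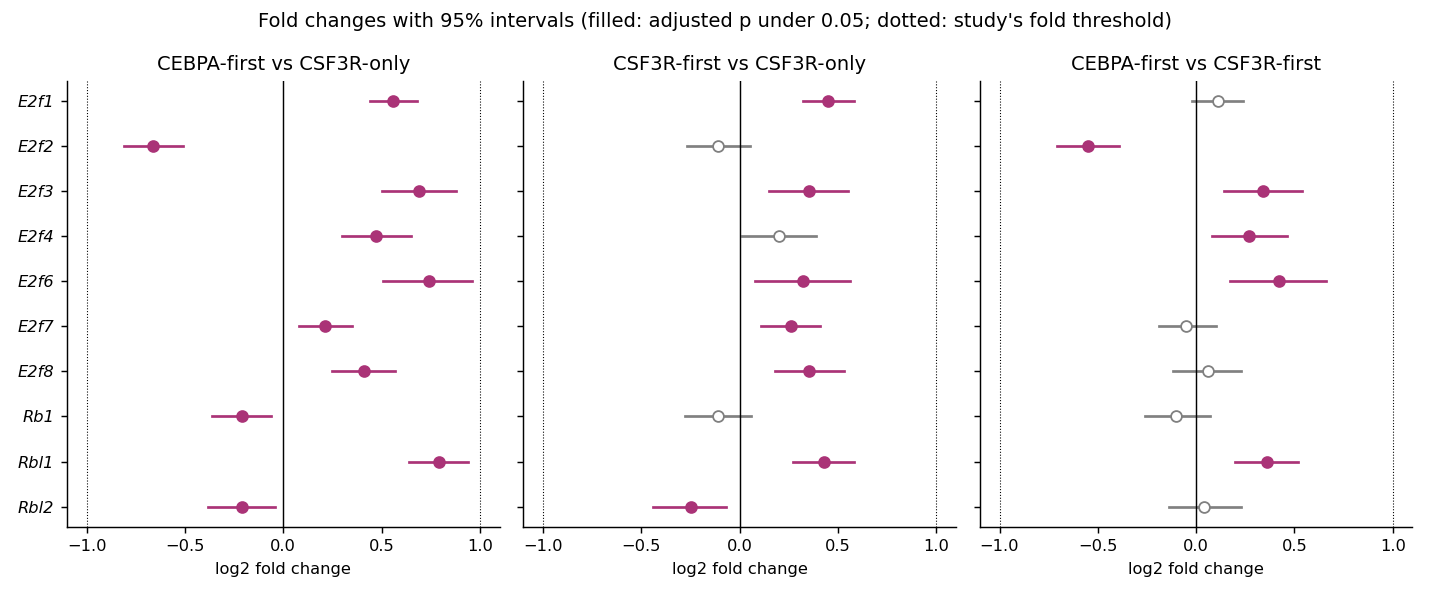
Log2 fold change of each gene (points) with its 95% interval (lines) from edgeR's quasi-likelihood fit, in 3 comparisons. Filled points have an adjusted p under 0.05, open points do not, and dotted lines mark log2 values of −1 and 1. E2f2 is to the left of 0 in both panels that involve CEBPA-first cells, Rbl1 is to the right in all panels, and no interval reaches a dotted line.

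The activators did not move together. E2f1, the best known inducer of S phase genes among them, stood at 48.5, 50.5, 47.8 and 49.1 CPM in the CSF3R-only libraries, at 70.0, 67.7 and 63.6 CPM in the CSF3R-first libraries, and at 72.2, 77.7, 67.8 and 71.1 CPM in the CEBPA-first libraries. Every double-mutant library was above every CSF3R-only library, and the double-mutant groups overlapped. Its log2 fold change over CSF3R-only was 0.56 (SE 0.06, edgeR adjusted p = 1.3e-06) in CEBPA-first cells and 0.45 (SE 0.06, adjusted p = 0.00015) in CSF3R-first cells. Between the orders it differed by 0.11 (95% interval −0.02 to 0.24, adjusted p = 0.17), and the call in this last comparison appeared when library size alone was used for scaling (0.16, adjusted p = 0.034).

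E2f2, the activator linked to the exit of maturing blood cells from the cell cycle, went the other way. It was measured at 219, 196, 205 and 218 CPM in CSF3R-only libraries, at 209, 177 and 197 CPM in CSF3R-first, and at 142, 133, 133 and 122 CPM in CEBPA-first libraries. The CSF3R-only and CSF3R-first libraries overlapped, and all 4 CEBPA-first libraries were below both. E2f2 fell to 0.634 of its CSF3R-only level in CEBPA-first cells (log2 fold change −0.66, SE 0.07, edgeR adjusted p = 1.8e-06) and was lower there than in CSF3R-first cells as well (−0.55, SE 0.07, adjusted p = 8.6e-05). In CSF3R-first against CSF3R-only cells the difference was −0.11 (95% interval −0.27 to 0.05, adjusted p = 0.27). The paper names E2f2 a likely driver of proliferation under CSF3R T618I. In an immortalized mouse progenitor line it reports induction of E2f2 by CSF3R T618I with or without CEBPA V314VW. Every group here carries CSF3R T618I, so that induction was not measured in these libraries. Of the 5 erythroid markers on the list, Hbb-bt, Hba-a1 and Klf1 fell in CEBPA-first cells against each of the other groups, Tfrc rose against CSF3R-only, and none was called between CSF3R-first and CSF3R-only. Their summed level, which consists mostly of the transferrin receptor gene Tfrc, overlapped among groups (376 to 514 CPM in CSF3R-only libraries, 320 to 570 CPM in CSF3R-first and 434 to 549 CPM in CEBPA-first libraries), and the part of erythroid cells in the E2f2 result was not tested.

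E2f3, the least abundant activator, increased stepwise over the groups. It read 19.0, 20.5, 21.9 and 23.2 CPM in CSF3R-only libraries, 24.8, 31.1 and 25.1 CPM in CSF3R-first, and 33.5, 36.1, 32.0 and 35.0 CPM in CEBPA-first libraries. No group overlapped another. The log2 fold change over CSF3R-only was 0.69 (SE 0.09, edgeR adjusted p = 8.9e-06) in CEBPA-first cells and 0.35 (SE 0.09, adjusted p = 0.0091) in CSF3R-first cells, and between the orders it was 0.34 (SE 0.09, adjusted p = 0.0095). The rise in CSF3R-first cells rested in part on replicate B, without which it was 0.24 (adjusted p = 0.058), and the difference between the orders was 0.28 (adjusted p = 0.058) without CSF3R-first replicate C.

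The makeup of the activator class changed more than its total. E2f2 made up 68.8% ± 1.4 (SD, n = 4) of the summed FPKM of the activators in CSF3R-only cells, 60.2% ± 2.7 (SD, n = 3) in CSF3R-first cells and 48.2% ± 2.0 (SD, n = 4) in CEBPA-first cells. E2f1 took 25.0% ± 1.2, 32.2% ± 1.5 and 40.6% ± 1.5 in the same order, and E2f3 6.3% ± 0.5, 7.6% ± 1.3 and 11.2% ± 0.6. Within a library, log2 CPM of E2f1 was below that of E2f2 by a mean of 2.09 (SD 0.10) in CSF3R-only cells, 1.53 (SD 0.13) in CSF3R-first cells and 0.88 (SD 0.11) in CEBPA-first cells. These sums and within-library differences are given as a description, with no test.

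**Figure D3:**
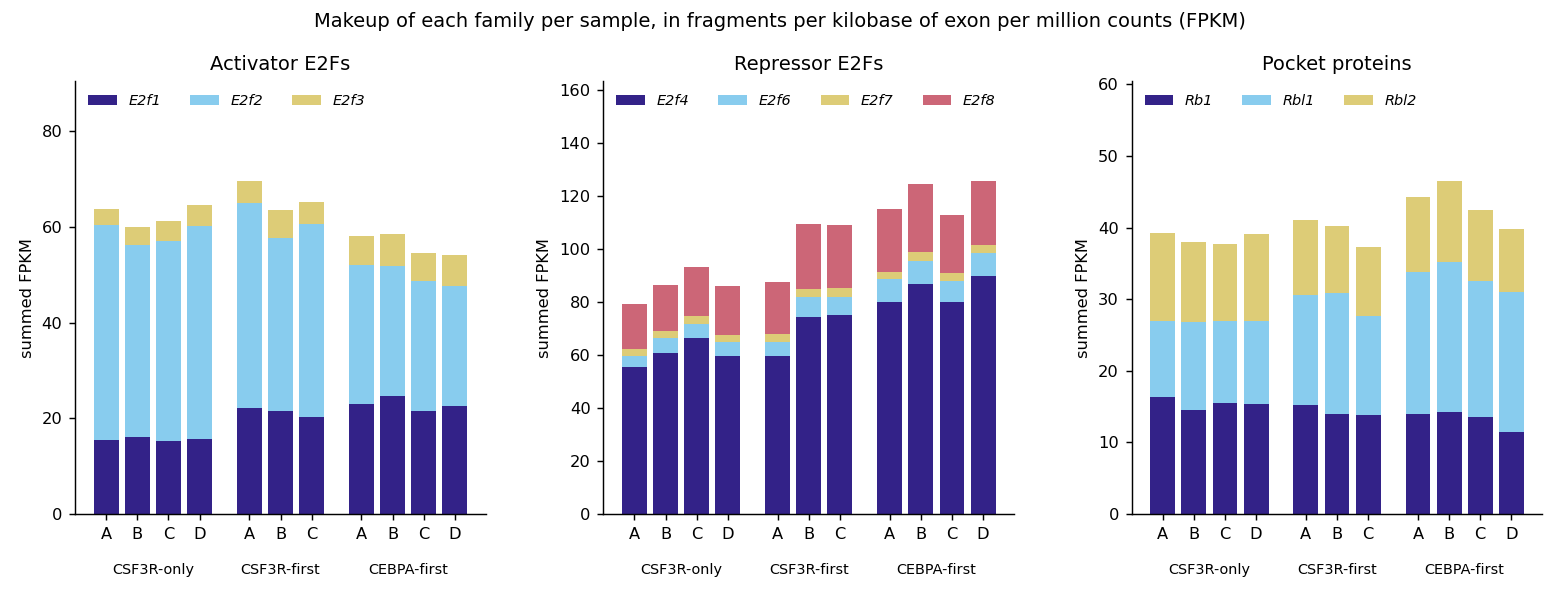
Summed FPKM of the activator E2Fs, the repressor E2Fs and the pocket protein genes in each library, stacked by gene, with libraries A to D of each group side by side. The E2f2 block of the activators shrinks from 68.8% of the bar in CSF3R-only to 48.2% in CEBPA-first cells, E2f4 keeps 68.2% to 70.4% of the repressor bar, and Rbl1 grows from 29.8% to 45.9% of the pocket protein bar.

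All 4 repressor E2Fs rose in CEBPA-first over CSF3R-only cells. E2f4, the partner of p107 and p130, was at 136, 149, 163 and 146 CPM in CSF3R-only libraries, 146, 182 and 184 CPM in CSF3R-first, and 196, 213, 196 and 220 CPM in CEBPA-first libraries. CEBPA-first libraries were the highest without overlap, and CSF3R-first replicate A lay within the CSF3R-only range. The log2 fold change was 0.47 (SE 0.08, edgeR adjusted p = 0.00016) in CEBPA-first over CSF3R-only cells. It was 0.20 (95% interval 0.01 to 0.39, adjusted p = 0.082) in CSF3R-first over CSF3R-only cells and 0.27 (SE 0.09, adjusted p = 0.024) between the orders. Without CSF3R-first replicate A the last values were 0.30 (adjusted p = 0.0053) and 0.17 (adjusted p = 0.10). The value in CSF3R-first cells was also called with library size as the only scaling (0.29, adjusted p = 0.046), with no filter on low counts (0.25, adjusted p = 0.04) and with a replicate block (0.21, adjusted p = 0.035), and the difference between the orders also lost its call without CEBPA-first replicate B (0.26, adjusted p = 0.057) or D (0.24, adjusted p = 0.06).

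E2f6, the Polycomb-associated repressor, rose in both double-mutant groups. Its libraries were at 24.0, 32.1, 30.5 and 29.8 CPM in CSF3R-only libraries, 29.9, 41.6 and 37.5 CPM in CSF3R-first, and 48.7, 50.0, 45.0 and 50.5 CPM in CEBPA-first cells. The CEBPA-first libraries stood apart, while CSF3R-first and CSF3R-only overlapped. The log2 fold change was 0.74 (SE 0.11, edgeR adjusted p = 2.8e-05) in CEBPA-first over CSF3R-only cells, 0.32 (SE 0.11, adjusted p = 0.036) in CSF3R-first over CSF3R-only cells and 0.42 (SE 0.11, adjusted p = 0.0088) between the orders. The CSF3R-first value lost its call without CSF3R-only replicate A (0.24, adjusted p = 0.092) or D (0.33, adjusted p = 0.061), or without CSF3R-first replicate B (0.21, adjusted p = 0.19) or C (0.32, adjusted p = 0.088).

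The atypical repressors rose in both orders by similar amounts. E2f8, which with E2f7 limits E2F1 activity, was at 92.3, 94.7, 100 and 101 CPM in CSF3R-only libraries, 108, 134 and 130 CPM in CSF3R-first, and 128, 139, 118 and 131 CPM in CEBPA-first libraries. E2f7 was at 23.4, 23.2, 25.9 and 24.2 CPM, then 28.2, 28.8 and 29.9 CPM, and 26.5, 30.2, 27.6 and 27.9 CPM in the same groups. For both genes every double-mutant library exceeded every CSF3R-only library, and the orders overlapped. The log2 fold change of E2f8 was 0.41 (SE 0.07, edgeR adjusted p = 0.00023) in CEBPA-first and 0.35 (SE 0.08, adjusted p = 0.0037) in CSF3R-first cells, and that of E2f7 was 0.21 (SE 0.06, adjusted p = 0.0078) and 0.26 (SE 0.07, adjusted p = 0.0084). CEBPA-first minus CSF3R-first was 0.06 for E2f8 (95% interval −0.12 to 0.23, adjusted p = 0.59) and −0.05 for E2f7 (95% interval −0.19 to 0.10, adjusted p = 0.61), so that small differences between the orders were not detectable here. Of the exon bases of E2f8, 11.21% lie opposite the antisense gene Gm2788, and the strand setting of the count is not given in the sources used here, so some of its reads may belong to that gene. The overlap is 0.95% for E2f7.

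Set against each other, the activator class fell behind the repressor class in CEBPA-first cells, where E2f2 fell and the repressor sum rose. Summed FPKM of the activators was 62.3 ± 2.18 in CSF3R-only libraries (SD, n = 4), 66.0 ± 3.19 in CSF3R-first (SD, n = 3) and 56.4 ± 2.32 in CEBPA-first cells (SD, n = 4), while that of the repressors was 86.2 ± 5.60, 102 ± 12.4 and 119 ± 6.59. The activator to repressor ratio was 0.725 ± 0.0648, 0.656 ± 0.119 and 0.473 ± 0.032, with a range of 0.430 to 0.506 in CEBPA-first libraries that lay below every library of the other groups. Without E2f2 the ratio was 0.226 ± 0.0138, 0.260 ± 0.0401 and 0.244 ± 0.010, and the ranges overlapped. Without E2f4, the largest part of the repressor sum, it was 2.44 ± 0.175, 2.06 ± 0.35 and 1.6 ± 0.0832. That ratio was again lower in each CEBPA-first library than in any library of the other groups. Single activators were also set against the mean of each pair of repressors, and they differed in direction. On the log2 CPM scale E2f2 exceeded the mean of E2f4 and E2f6 by 1.67 (SD 0.20) in CSF3R-only cells, 1.31 (SD 0.33) in CSF3R-first cells and 0.41 (SD 0.15) in CEBPA-first cells, and the mean of E2f7 and E2f8 by 2.11, 1.70 and 1.14 (SD 0.10, 0.21 and 0.13). For E2f1 the difference from E2f4 and E2f6 was −0.42, −0.22 and −0.47 (SD 0.13, 0.27 and 0.07), where each CEBPA-first library lay below each CSF3R-first library and the CSF3R-only range overlapped both, and that from E2f7 and E2f8 was 0.02, 0.17 and 0.26 (SD 0.09, 0.16 and 0.03), where CEBPA-first libraries lay above the CSF3R-only libraries and within the CSF3R-first range. For E2f3 the difference from E2f4 and E2f6 was −1.63, −1.54 and −1.55 (SD 0.11, 0.17 and 0.03), and that from E2f7 and E2f8 was −1.20, −1.15 and −0.82 (SD 0.08, 0.16 and 0.03), higher in each CEBPA-first library than in any library of the other groups. All these differences are descriptions on chosen genes, with no p.

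The pocket proteins diverged as well. Rbl1 encodes p107, which is itself an E2F target and is made in cycling cells. It was at 63.8, 73.9, 68.3 and 69.1 CPM in CSF3R-only libraries, 92.4, 101 and 83.3 CPM in CSF3R-first, and 119, 125, 114 and 117 CPM in CEBPA-first libraries. The 3 groups did not overlap. Rbl1 had the largest rise of the 10 genes, 1.73-fold in CEBPA-first over CSF3R-only cells (log2 fold change 0.79, SE 0.07, edgeR adjusted p = 3.7e-07), and it rose by 0.43 in CSF3R-first cells (SE 0.07, adjusted p = 0.00077). CEBPA-first exceeded CSF3R-first cells by 0.36 (SE 0.07, adjusted p = 0.0017).

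Rbl2 encodes p130, the pocket protein of resting cells. It was at 93.6, 84.5, 81.5 and 92.4 CPM in CSF3R-only libraries, 78.8, 70.4 and 72.1 CPM in CSF3R-first, and 78.4, 85.6, 74.3 and 66.0 CPM in CEBPA-first libraries. CSF3R-first libraries were below all CSF3R-only libraries, while CEBPA-first replicate B overlapped them. The log2 fold change was −0.25 (SE 0.09, edgeR adjusted p = 0.030) in CSF3R-first and −0.21 (SE 0.08, adjusted p = 0.029) in CEBPA-first cells, and 0.04 between the orders (95% interval −0.14 to 0.23, adjusted p = 0.71). Both calls against CSF3R-only were lost with library size as the only scaling (−0.17, adjusted p = 0.068, and −0.08, adjusted p = 0.29) and without CSF3R-only replicate A (−0.23, adjusted p = 0.073, and −0.18, adjusted p = 0.074) or D (−0.23, adjusted p = 0.074, and −0.19, adjusted p = 0.072). The call in CSF3R-first cells was also lost without CSF3R-first replicate B (−0.22, adjusted p = 0.11) or C (−0.22, adjusted p = 0.12), and that in CEBPA-first cells without CEBPA-first replicate C (−0.20, adjusted p = 0.067) or D (−0.15, adjusted p = 0.093). Rb1, the founding tumor suppressor of the family, was at 98.3, 87.3, 92.9 and 92.9 CPM, then 91.2, 84.1 and 82.7 CPM, and 84.2, 86.0, 81.5 and 69.5 CPM. It fell in CEBPA-first cells by a log2 fold change of −0.21 (SE 0.07, adjusted p = 0.017), which was −0.08 (adjusted p = 0.25) with library size as the only scaling and −0.14 (adjusted p = 0.15) with no filter on low counts. Its CSF3R-first value was −0.11 (95% interval −0.28 to 0.06, adjusted p = 0.27), and between the orders it was −0.10 (95% interval −0.26 to 0.07, adjusted p = 0.30). Antisense genes cover 20.97% of the exon bases of Rbl2 and 14.9% of those of Rb1, so their small changes may include reads of Aktip, Gm45464, Lpar6 or Rcbtb2.

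Rbl1 went from level with Rbl2 and below Rb1 in CSF3R-only cells to the highest of the pocket protein genes in CEBPA-first cells. It made up 29.8% ± 2.2 (SD, n = 4) of their summed FPKM in CSF3R-only, 39.0% ± 2.7 (SD, n = 3) in CSF3R-first and 45.9% ± 2.1 (SD, n = 4) in CEBPA-first cells, where Rb1 held 40.0%, 36.2% and 30.9% and Rbl2 30.2%, 24.7% and 23.2%. On the log2 CPM scale Rbl1 minus Rbl2 was −0.36 ± 0.16 in CSF3R-only libraries, 0.32 ± 0.18 in CSF3R-first and 0.65 ± 0.12 in CEBPA-first libraries, with no overlap between groups. These are again descriptions with no test.

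When CSF3R T618I came first and CEBPA V314VW second, 7 of the 10 genes were called against CSF3R-only, 6 higher and 1 lower, beside 42.6% of all tested genes (21.5% higher and 21.1% lower). The count was 4 without CSF3R-first replicate B. The groups did not overlap for 6 of the 10, beside 42.1% of tested genes, and the median log2 fold change was 0.29, beside −0.02 over all tested genes. The rises were those of E2f1, E2f3, E2f6, E2f7, E2f8 and Rbl1. None of the 10 passed the fold threshold with edgeR or DESeq2, which 6.62% of tested genes did with edgeR. This comparison and the one of CEBPA-first cells use the same 4 CSF3R-only libraries, so their values stand side by side and are not independent.

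Tested directly, CEBPA-first and CSF3R-first cells differed in 5 of the 10 genes: E2f3, E2f4, E2f6 and Rbl1 were higher and E2f2 was lower in CEBPA-first cells. The groups also swap which oncogene sat in MIG and which in idsRed, and so how long each was expressed. Order, time of expression and vector cannot be told apart here, although the paper reported equivalent CEBPA expression from both vectors. The share of all tested genes called was 48.2%, close to the share of the members, and 24.0% were higher and 24.2% lower. These 5 genes were also the ones with no overlap between the groups, beside 52.2% of tested genes. The median log2 fold change was 0.08 over the members and 0 over all tested genes. For E2f1, E2f7, E2f8, Rb1 and Rbl2 the difference was not detectable, with 95% intervals that lay between −0.26 and 0.24. No member passed the fold threshold with either tool, which 12.8% of tested genes passed with edgeR. Whether CSF3R-first cells sat away from the midpoint of the other groups was asked after the values had been seen. With edgeR none of the 10 did, beside 3.53% of tested genes, although 3 had an unadjusted p under 0.05 (E2f1, E2f2 and E2f7). E2f1 was above the midpoint by 0.17 (SE 0.05, adjusted p = 0.11) and E2f2 by 0.22 (SE 0.06, adjusted p = 0.092), and DESeq2 called 1, E2f2 (0.22, adjusted p = 0.047).

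Of the genes that E2Fs drive at the G1/S transition, all 28 on the list rose in CEBPA-first over CSF3R-only cells, with a median log2 fold change of 1.03, and 16 passed the fold threshold, which 8.07% of tested genes did in this direction. All 28 also rose in CSF3R-first cells, with a median of 0.61, and 26 were higher in CEBPA-first than in CSF3R-first cells, with a median of 0.43. Over all tested genes the medians were 0, −0.02 and 0. The leading genes were Hells, a chromatin remodeler (log2 fold change 1.36 in CEBPA-first and 0.82 in CSF3R-first cells), Cdc6, which loads the replicative helicase (1.31 and 0.82), the phosphatase gene Cdc25a (1.23 and 0.69) and Cdca7 (1.18 and 0.60). Their edgeR adjusted p was at most 1.9e-07 in CEBPA-first and 0.00029 in CSF3R-first cells. Genes of G2/M that DREAM represses rose too, 15 of 15 in each double-mutant group, with medians of 0.72 and 0.50. Nek2 (1.03 and 0.67), Cdk1 (0.89 and 0.59), Top2a (0.86 and 0.50) and Aurkb (0.85 and 0.54) were at the top, and 9 of the 15 differed between the orders, all higher in CEBPA-first cells. E2f1 stood beside these lists in direction, and E2f2 did not.

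**Figure D4:**
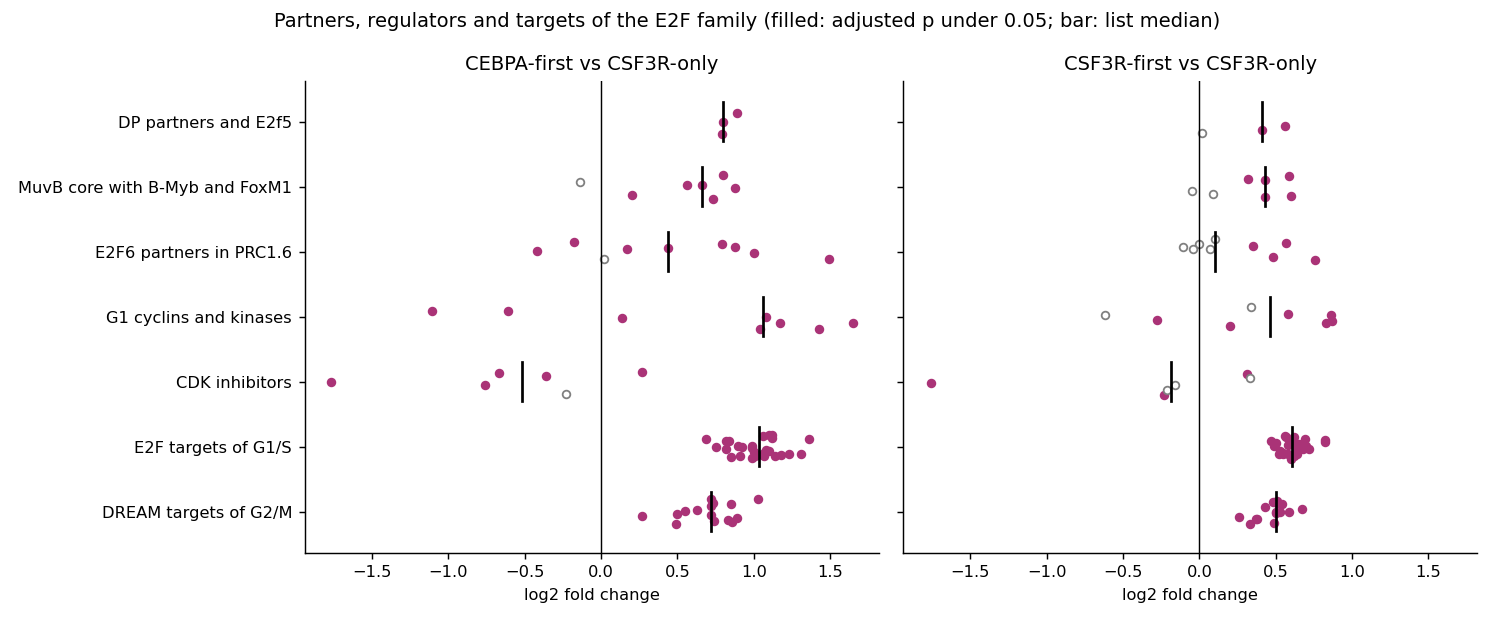
Log2 fold change of each tested gene on 7 lists of E2F partners, regulators and targets, in CEBPA-first (left) and CSF3R-first (right) against CSF3R-only cells. Filled points have an adjusted p under 0.05, open points do not, and black bars are list medians. Points of both target lists are all to the right of 0 in both panels, with medians of 1.03 and 0.61 for G1/S and 0.72 and 0.50 for G2/M, and CDK inhibitors are mostly to the left.

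The dimer partner Tfdp1, which most E2Fs need to bind DNA, went from 295 ± 10.6 CPM in CSF3R-only (SD, n = 4) to 434 ± 35.4 CPM in CSF3R-first (SD, n = 3) and 512 ± 27.2 CPM in CEBPA-first cells (SD, n = 4), a log2 fold change of 0.56 and 0.80. Tfdp2 rose in CEBPA-first cells alone among the comparisons with CSF3R-only (0.79, edgeR adjusted p = 0.00018, against 0.02, adjusted p = 0.91), and was higher there than in CSF3R-first cells (0.76, adjusted p = 0.0014). E2f5, the remaining canonical repressor, was scarce at 4.07 CPM in CSF3R-only cells and rose by 0.89 in CEBPA-first and 0.41 in CSF3R-first cells. The subunits of the MuvB core and its cycling partners rose in 6 of 7 cases in CEBPA-first and 5 of 7 in CSF3R-first cells, led by Mybl2 (0.88 and 0.60) and Foxm1 (0.80 and 0.59), transcription factors of late cell cycle genes, with Lin9 (0.73 and 0.43) and Lin52 (0.66 and 0.43) of the core itself. The Polycomb partners of E2F6 were mixed. In CEBPA-first cells 6 of 9 rose and 2 fell, with Pcgf6 (1.49), L3mbtl2 (1.0), Cbx3 (0.88) and Hdac2 (0.79) ahead, while in CSF3R-first cells 4 rose and none fell.

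Upstream of the pocket proteins, 6 of 8 genes for G1 cyclins and their kinases rose in CEBPA-first cells and 2, Ccnd1 and Ccnd3, fell. Ccnd3, a D-type cyclin, went from 714 to 467 CPM (log2 fold change −0.61, edgeR adjusted p = 9.2e-07). Ccnd2, another D-type cyclin, went from 25.9 to 81.2 CPM (log2 fold change 1.65, edgeR adjusted p = 6e-07), and the kinase gene Cdk6 from 120 to 324 CPM (1.43, adjusted p = 1.3e-06). Ccne2 (1.17) and Cdk4 (1.08) came next. In CSF3R-first cells 5 of the 8 rose, Ccnd3 fell, and Ccnd2 changed by 0.34 (adjusted p = 0.093). Of the CDK inhibitors, 6 of 7 could be tested. In CEBPA-first cells 4 fell and Cdkn2c rose (0.27), with Cdkn2d at −0.76, Cdkn1b at −0.67 and Cdkn1a at −0.36 besides the scarce Cdkn2b, and in CSF3R-first cells 2 fell and Cdkn2c rose (0.31). All lists were drawn up with earlier results of these data known, and their counts are descriptions beside the 72.0%, 42.6% and 48.2% of genes called in each comparison. Progenitor markers moved with them, from a sum of 186 to 251 CPM in CSF3R-only to 204 to 294 CPM in CSF3R-first and 376 to 417 CPM in CEBPA-first cells, carried by Myb and against the fall of Cd34, and their part in these changes was not tested.

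Genes whose profile over the 11 libraries was closest to that of a member were found by Pearson's r of log2 CPM among 7827 genes. The closest to E2f1 were Ipp (r = 0.994), Ccne2 (0.988) and Pxylp1 (0.987). The closest to E2f2 were B4galt5 and E330009J07Rik (both 0.991) and Mxd1 (0.990), which encodes an antagonist of MYC. E2f6 was most like Brix1 (0.997) and E2f4 most like Fam117a (0.994), while Rbl1 was nearest to Tmem248 (0.995) and E2f3 to Luc7l (0.993). E2f8 was closest to Prr11 (0.989) and the DNA polymerase gene Polq (0.971). The weaker matches of Rb1 (Cdk19, 0.970), Rbl2 (Slc25a36, 0.959) and E2f7 (Scmh1, 0.929) go with their smaller differences between groups. The points share libraries and group structure, so these values describe likeness of profile only.

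On build GRCm38 with the GENCODE vM21 annotation the genes lie at chr2:154559407-154569892 (E2f1), chr4:136172394-136196057 (E2f2), chr13:29906575-29986063 (E2f3), chr8:105297663-105305370 (E2f4), chr12:16810963-16839742 (E2f6), chr10:110745439-110787384 (E2f7), chr7:48866429-48881596 (E2f8), chr14:73183673-73325822 (Rb1), chr2:157145893-157204534 (Rbl1) and chr8:91070057-91123844 (Rbl2). The table gives 1 value per gene, so it carries no information on isoforms.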

How the data were processed

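The authors trimmed reads with Trimmomatic, aligned them with STAR to mm10 and deposited raw counts per Ensembl gene in a single table. The counting tool, annotation and strand setting are not given in the sources used here, so that counts of genes with antisense neighbours may hold reads of both. All 51912 gene rows and 11 columns were read. No molecular identifiers are mentioned for the SMARTer low-input libraries, and intervals cover the spread between samples, not amplification.

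The 3 groups were fitted together with edgeR 4.0.16 (R 4.3.3; TMM scaling, filterByExpr, robust quasi-likelihood test, Benjamini-Hochberg over 15703 genes). Log2 CPM used a prior count of 2, and FPKM the union of exons in GENCODE vM21. The code was tested on simulated data. Alternatives were DESeq2 1.42.0, other scalings and filters, fits of only the compared groups, a replicate block and leaving out each sample. Members and lists were chosen with earlier results of these data known, and the midpoint contrast after the values were seen. Named genes were all members and up to 4 genes of each list with the largest absolute log2 fold change in CEBPA-first against CSF3R-only cells at an adjusted p under 0.05 and average log2 CPM of at least 3. Other genes named, such as E2f5, Ccnd1 and Ccnd3, complete a count and were chosen after their values were seen. Of the erythroid markers, 1 is not reported here and was left out of its list.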

Additional observations from a re-analysis of the deposited data

How the results depend on the processing

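Of the 30 member fold changes, 18 kept their direction and call under all 19 alternatives, among them those of E2f1, E2f2, E2f3, E2f4, E2f6, E2f7, E2f8 and Rbl1 in CEBPA-first over CSF3R-only cells. Library size as the only scaling moved the median of all genes from −0.004 to 0.129 in that comparison and its members from 7 higher and 3 lower to 7 and 1. It also moved the share of higher genes among calls from 50.5% to 61.9% in CSF3R-first over CSF3R-only cells, and among genes past the fold threshold from 29.9% to 40.2% in CEBPA-first over CSF3R-only and from 31.7% to 40.3% in CSF3R-first over CSF3R-only cells. With at least 10 counts in every sample, 566 genes passed the fold threshold in CSF3R-first over CSF3R-only cells, where 1040 had, and 1219 between the orders, where 2013 had, with fewer genes tested. Leaving out 1 sample gave 9 to 10 members called in CEBPA-first and 4 to 8 in CSF3R-first over CSF3R-only cells, the lowest without CSF3R-first replicate B, and 4 to 5 between the orders. Between the orders E2f7 was at 0.002 with library size only, Rbl2 ranged from −0.017 (without CEBPA-first replicate B) to 0.106 and E2f8 from −0.029 (without CSF3R-first replicate A) to 0.117 when a sample was left out, each crossing 0. E2f6 in CSF3R-first cells (0.33, adjusted p = 0.07) and E2f4 between the orders (0.24, adjusted p = 0.058) lost their calls in fits of the compared groups alone, and Rbl2 in CEBPA-first cells did so with DESeq2 (−0.19, adjusted p = 0.066). With no filter on low counts Rbl2 was not called in either comparison with CSF3R-only (−0.14, adjusted p = 0.17, and −0.21, adjusted p = 0.079). For the midpoint, DESeq2 called 901 genes and 1 member, library size only 2 members, and leaving out a sample 0 to 1. The cause of these changes was not tested. Same-lettered samples correlated at −0.107 to 0.362 over 10 pairs, of which 7 were over 0.1, and 6 of 11 samples were closest to their own letter, and since not every pair was over 0.1 the letters were not taken as a pairing. The replicate block gave 11493, 7212 and 7706 genes and 10, 8 and 5 members called, and E2f4 was called in CSF3R-first over CSF3R-only cells (0.21, adjusted p = 0.035).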
